A study of Mus musculus with 12 samples.

Results

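RGS proteins (regulators of G protein signalling) switch off signals from G protein coupled receptors. The 10 genes described here were Rgs2, Rgs4, Rgs7, Rgs8, Rgs10, Rgs12, Rgs13, Rgs14, Rgs16 and Rgs17, which are 10 of the 21 Rgs genes considered and of the 56734 genes in the deposited table. They were selected on their TPM in these libraries, with the layer and age differences in view. Their levels and fold changes are therefore given as a description, with no p-value, and support nothing about the family. The samples were sorted wild-type mouse projection neurons of cortical layers 2 and 3, taken on postnatal days 3 (P3) and 7 (P7), which makes 4 groups of 3 libraries. Neurons in all 4 groups carried the red fluorescent protein mCherry, delivered to the embryonic cortex by timed electroporation, and each library came from the cortices of 2 to 3 pups. A library is thus a pool of animals, and it holds the neurons that electroporation reached rather than a whole layer. Library names carry the number 14 for layer 3 and 15 for layer 2, and the sources used here do not say what these stand for. Levels are in TPM (transcripts per 1000000 transcripts), which are scaled for transcript length, so that different genes can be set side by side. The libraries' read depth is unknown.

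A receptor that binds its ligand loads the G protein alpha subunit with GTP, and the alpha subunit and the beta-gamma pair then act on enzymes and ion channels. An RGS protein speeds the hydrolysis of that GTP and so shortens the signal. The family is divided by structure. R4 members (here Rgs2, Rgs4, Rgs8, Rgs13 and Rgs16) are small proteins with little beyond the RGS domain, and R7 members (Rgs7) work as a complex with the beta subunit Gnb5. R12 members (Rgs10, Rgs12 and Rgs14) range from a small protein to large scaffolds, and RZ members (Rgs17) act on Gi-type alpha subunits, including Gnaz. In cortical neurons these proteins set how long receptors for transmitters such as glutamate, acetylcholine, serotonin and dopamine go on signalling.

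Promoters are shown for the 4 genes the results turn on most, the layer 3 genes Rgs13 and Rgs2 and the genes with higher levels at P7, Rgs4 and Rgs7. Each is the 250 bases before the annotated transcription start in RefSeq on the GRCm38.p6 build, written 5′ to 3′ on the gene's own strand, which was the minus strand for all 4. Capitals mark matches, on either strand, to 4 motifs: the TATA box TATAAA, the cAMP response core TGACG, the ROR core AGGTCA and the E-box CACGTG. No motif match overlaps another in these 4 sequences. Of 32851 mouse promoters of the same length, 12.4% held TATAAA, 17.8% TGACG, 14% AGGTCA and 6.02% CACGTG. Such a match is a string of letters and was not tested as a site.
Rgs13, chr1:144177373-144177622: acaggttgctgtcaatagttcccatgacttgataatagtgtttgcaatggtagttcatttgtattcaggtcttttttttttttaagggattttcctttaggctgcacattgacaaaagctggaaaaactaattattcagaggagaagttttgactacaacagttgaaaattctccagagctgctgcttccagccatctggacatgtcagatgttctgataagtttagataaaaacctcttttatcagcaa
Rgs2, chr1:144004150-144004399: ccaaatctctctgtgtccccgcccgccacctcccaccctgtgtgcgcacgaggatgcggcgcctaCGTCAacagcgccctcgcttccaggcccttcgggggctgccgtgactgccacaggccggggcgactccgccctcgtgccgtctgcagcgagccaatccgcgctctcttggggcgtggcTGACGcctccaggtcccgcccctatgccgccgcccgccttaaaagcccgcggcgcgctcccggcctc
Rgs4, chr1:169747643-169747892: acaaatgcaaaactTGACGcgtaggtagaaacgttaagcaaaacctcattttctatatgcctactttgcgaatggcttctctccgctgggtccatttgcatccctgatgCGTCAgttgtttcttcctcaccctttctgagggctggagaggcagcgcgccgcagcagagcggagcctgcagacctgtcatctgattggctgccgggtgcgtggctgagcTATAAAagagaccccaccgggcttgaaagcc
Rgs7, chr1:175492546-175492795: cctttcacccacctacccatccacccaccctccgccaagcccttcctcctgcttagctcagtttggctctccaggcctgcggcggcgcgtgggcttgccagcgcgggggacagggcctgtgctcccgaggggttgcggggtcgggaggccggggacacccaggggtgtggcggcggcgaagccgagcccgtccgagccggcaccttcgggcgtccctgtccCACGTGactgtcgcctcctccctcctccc
The Rgs13 promoter was AT-rich, with 36% G or C, no CG dinucleotide and none of the 4 motifs in this window. The Rgs2 promoter had 72.4% G or C and 30 CG dinucleotides, against medians of 52.4% and 6 over all promoters. It held TGACG with its first base at positions -185 and -67 from the start. The Rgs4 promoter, with 53.6% G or C and 13 CG dinucleotides, held TATAAA at -31 and TGACG at -236 and -141. The Rgs7 promoter, with 72.4% G or C and 22 CG dinucleotides, held CACGTG at -29. A promoter entry was found for 9 of the 10 genes, and Rgs14 had none.

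The number of genes at 1 TPM or more ran from 15349 to 16948 per library, and Pearson's r between libraries was 0.9606 to 0.9818 within groups and 0.8784 to 0.9745 between them. P3 layer 2 replicate 2, P3 layer 3 replicate 1 and P7 layer 3 replicate 1 were picked, after seeing the data, as standing apart from their groups. The first had the highest microglial marker sum (4104 TPM), the second the highest level of Ttr (234 TPM), made by the choroid plexus, and the third the highest oligodendrocyte lineage sum (1286 TPM). P3 layer 3 replicate 2 was not among them but also differed from its group. Its astrocyte sum was 410 TPM, against 149 and 156 TPM in replicates 1 and 3. Its oligodendrocyte lineage sum was 303 TPM, against 116 and 101 TPM. Markers of upper-layer projection neurons summed to at least 1630 TPM in every library. At P3 that sum was 1630 to 2185 TPM in layer 2 and 2692 to 3109 TPM in layer 3, without overlap. The P3 oligodendrocyte lineage sum was 460 to 510 TPM in layer 2 and 101 to 303 TPM in layer 3. Microglial markers, 12 of 12 detected, summed to 734 to 4104 TPM, and astrocyte markers, 10 of 10 detected, to 149 to 1455 TPM. Interneuron markers summed to 204 to 279 TPM in P3 layer 2 and 91.7 to 125 TPM in P7 layer 2, without overlap. In layer 3 the interneuron sum was 201 to 312 TPM at P3 and 320, 84.6 and 86.0 TPM at P7. At P3 the astrocyte sum was 669 to 754 TPM in layer 2 and 149 to 410 TPM in layer 3. The sum of the 6 layer 4 markers was 29.5 to 40.8 TPM in layer 2 and 77.4 to 151 TPM in layer 3 at P3. At P7 the layer 4 sum was 49.2 to 64.5 TPM in layer 2 and 141 to 186 TPM in layer 3. The Y-linked gene Eif2s3y also differed at P3, at 0, 0 and 8.35 TPM in layer 2 and 32.7, 23.7 and 98.9 TPM in layer 3, so the sex makeup of the pools and the layer cannot be told apart there. In these bulk samples fewer cells of a type and less RNA per cell cannot be told apart. The part of these differences in the results below was not tested.

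**Figure D1:**
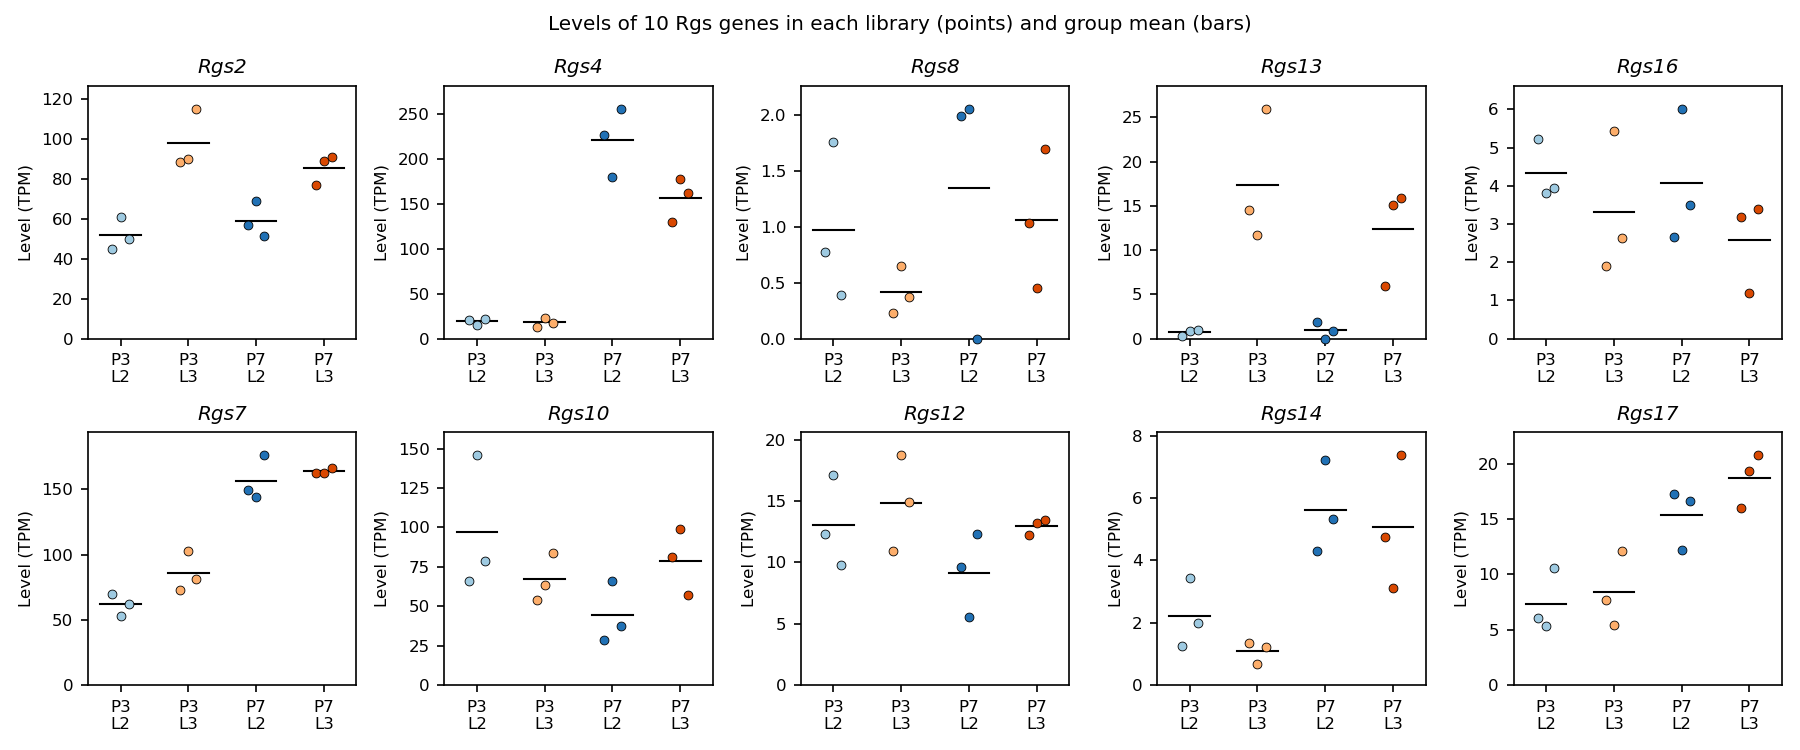
TPM of the 10 Rgs genes in each of the 12 libraries, on a linear axis that starts at 0 (1 point per library, bars at group means, L2 and L3 for the layers). Rgs13 is near 0 in every layer 2 library and between 5.96 and 25.9 TPM in layer 3, and Rgs4 is at 23.1 TPM or less at P3 and at 130 TPM or more at P7.

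Among the R4 genes, Rgs13, known from B cells and mast cells as a brake on chemokine and antigen signals, was a layer 3 transcript in these libraries. At P3 it was at 0.328, 0.858 and 0.986 TPM in layer 2 and at 14.5, 11.7 and 25.9 TPM in layer 3. The groups were far apart, and the layer 3 mean of 17.4 ± 7.55 TPM was 24.01 times that of layer 2 (0.724 ± 0.349 TPM, SD, n = 3). The log2 fold change of layer 2 against layer 3, fitted on log2(TPM + 1), was -3.36 ± 0.44 (SE). The pseudocount of 1 shrinks a change in a gene this low, and the fitted value was -4.43 with 0.1 and -1.92 with 5. At P7 the layer 2 libraries held 1.83, 0 and 0.896 TPM and the layer 3 libraries 5.96, 15.1 and 15.9 TPM. The ranges were again apart, with a fold change of -2.82 ± 0.44. Between P3 and P7 the Rgs13 ranges overlapped in each layer, and the fitted age differences were 0.04 in layer 2 and -0.49 in layer 3.

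Markers of lymphocytes and mast cells summed to 28.9 TPM or less in every library. Cd3e, Ms4a1, Ms4a2 and Fcer1a were at 0 in all 12 libraries, and the 9 markers summed to 7.18 to 11.6 TPM in layer 2 and 3.53 to 12.4 TPM in layer 3 at P3. At P7 the sum was 8.93 to 18.8 TPM in layer 2 and 25.3 to 28.9 TPM in layer 3. Most of that P7 difference was Kit, at 4.20 to 10.4 TPM in layer 2 and 18.9 to 26.0 TPM in layer 3. Kit marks mast cells, and neurons also carry it. The part of lymphocytes and mast cells in the Rgs13 values was not tested. No stretch of 31 bases in the Rgs13 transcripts was shared with another gene's transcripts.

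Rgs2, an R4 protein that acts chiefly on Gq and is induced by neuronal activity, was also higher in layer 3. At P3 it was at 44.7, 60.8 and 49.9 TPM in layer 2 and at 88.7, 90.2 and 115 TPM in layer 3. The lowest layer 3 library lay above the highest layer 2 library, and the fold change of layer 2 against layer 3 was -0.91 ± 0.16. At P7 the libraries held 56.8, 68.9 and 51.4 TPM in layer 2 and 77.0, 89.0 and 90.8 TPM in layer 3. These ranges were apart too, with a smaller fold change of -0.54. With age Rgs2 moved little, by 0.19 in layer 2 and -0.19 in layer 3, and its ranges overlapped in both layers.

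Rgs13 and Rgs2 were the 2 of the 10 genes whose layer difference at P3 passed an adjusted p of 0.05 in the fit over all genes, both lower in layer 2. Over all 17606 tested genes 9.05% passed, 4.87% as higher and 4.18% as lower in layer 2. At P7 only Rgs13 passed, as lower in layer 2, against 0.500% of all genes in either direction, 0.119% higher and 0.381% lower. Ranges did not overlap at P3 for 3 genes (Rgs2, Rgs7 and Rgs13, all lower in layer 2), against 27.0% of all genes in either direction, 16.0% higher and 11.0% lower. At P7 they did not overlap for Rgs2 and Rgs13, lower in layer 2, and for Rgs4, higher in layer 2, against 20.0% of all genes, 8.14% higher and 11.9% lower. The rule that listed the genes used these contrasts, so nothing is read from the counts. The median fold change of the 10 genes was -0.02 at P3 and -0.17 at P7, and that of all tested genes 0.06 and -0.04. Over 15 other settings the P3 fold change of Rgs2 ran from -1.09 to -0.79 and that of Rgs13 from -4.43 to -1.92. The P7 difference of Rgs13 did not pass with a pseudocount of 0.1, or without P7 layer 2 replicate 2 (-2.42) or 3 (-2.88) or P7 layer 3 replicate 2 (-2.63) or 3 (-2.60).

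**Figure D2:**
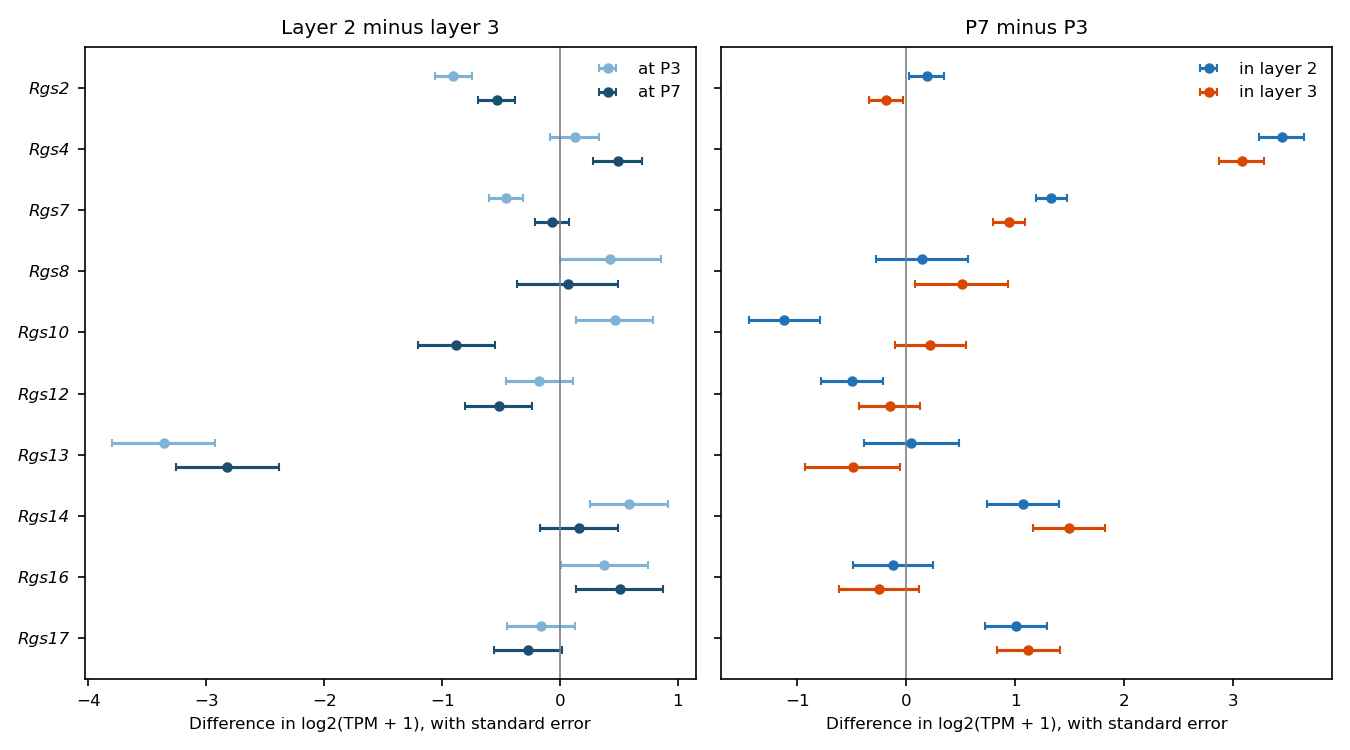
Log2 fold changes of the 10 Rgs genes on log2(TPM + 1) with standard errors, for layer 2 against layer 3 at each age and for P7 against P3 in each layer. Rgs13 lies at -3.36 and -2.82 between the layers, and Rgs4 at 3.44 and 3.08 between the ages.

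Rgs4, an R4 protein abundant in the mature cortex that acts on Gi, Go and Gq signals from muscarinic, opioid and metabotropic glutamate receptors, had the largest age difference of the 10. In layer 2 it was at 20.7, 15.5 and 21.9 TPM at P3 and at 227, 180 and 256 TPM at P7. Every P7 library lay far above every P3 library, and the P7 mean (221 ± 38.3 TPM) was 11.4 times the P3 mean (19.4 ± 3.41 TPM). In layer 3 Rgs4 was at 13.1, 23.1 and 17.7 TPM at P3 and at 130, 177 and 162 TPM at P7. That was a ratio of means of 8.725, from 17.9 ± 5.03 to 157 ± 24.1 TPM, again with no overlap. The fold changes were 3.44 ± 0.21 in layer 2 and 3.08 ± 0.21 in layer 3. Between the layers Rgs4 overlapped at P3, with a fold change of 0.12, and at P7 the lowest layer 2 library lay just above the highest layer 3 library (0.49 ± 0.21).

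The remaining R4 genes were low, and their ranges overlapped between the ages and between the layers. At such levels this does not settle whether they follow age or layer. Rgs16, which acts on Gi and Gq subunits, was at 5.23, 3.82 and 3.94 TPM in P3 layer 2 and at 1.90, 5.43 and 2.64 TPM in P3 layer 3. At P7 it was at 2.66, 6.01 and 3.51 TPM in layer 2 and at 3.19, 1.20 and 3.39 TPM in layer 3. Its ranges overlapped in all 4 comparisons, with fold changes from -0.25 to 0.51, and 9.09% of its 31-base stretches are shared with another gene model, Gm28513. Rgs8, best known from cerebellar Purkinje cells, was between 0 and 2.05 TPM over the 12 libraries and reached 1 TPM in 5 of them. Its group means were 0.970 ± 0.707 and 0.416 ± 0.217 TPM in layers 2 and 3 at P3, and 1.35 ± 1.17 and 1.06 ± 0.622 TPM at P7, with overlapping ranges throughout.

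Rgs7, the R7 member, pairs with Gnb5 in neurons and acts on Go downstream of GABA-B and other receptors. In layer 2 it was at 69.9, 52.8 and 62.5 TPM at P3 and at 150, 144 and 176 TPM at P7. Layer 3 held Rgs7 at 73.2, 103 and 81.0 TPM at P3 and at 163, 162 and 166 TPM at P7. The P7 libraries were the higher ones in both layers without overlap, by 2.535 times the P3 mean in layer 2 and 1.912 times in layer 3. The fold changes with age were 1.33 ± 0.14 and 0.94 ± 0.14. At P3 the layer 2 libraries lay below all layer 3 libraries (-0.46 ± 0.14), a difference that did not pass the threshold over all genes. It did pass with quantile normalization (-0.44), with median-ratio scaling (-0.54) and without P3 layer 3 replicate 1 (-0.57). At P7 the layers overlapped (-0.07).

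Rgs10, a small R12 protein found in microglia and other immune cells as well as in neurons, varied widely within groups. It was at 66.3, 146 and 78.8 TPM in P3 layer 2 and at 28.4, 66.2 and 37.7 TPM in P7 layer 2. The highest P7 library fell just under the lowest P3 library, and the fold change was -1.12 ± 0.33. In layer 3 it was at 54.0, 63.5 and 83.8 TPM at P3 and at 80.9, 99.0 and 57.0 TPM at P7, with overlapping ranges and a fold change of 0.22. Replicate 2 was the highest of its group in P3 layer 2, P7 layer 2 and P7 layer 3. Between the layers its ranges overlapped at both ages, with fold changes of 0.46 at P3 and -0.88 ± 0.33 at P7.

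The microglial marker sum was compared with Rgs10 library by library. In replicates 1, 2 and 3 it was 1869, 4104 and 2236 TPM in P3 layer 2 and 802, 2103 and 1550 TPM in P7 layer 2. The layer 3 libraries had 1174, 1992 and 2237 TPM at P3 and 2220, 1956 and 734 TPM at P7. In 3 of the 4 groups the libraries stood in the same order for the markers as for Rgs10, the exception being P7 layer 3. Of the 12 markers none was higher and 2 were lower at P7 in layer 2, where 15.0% of all genes were higher and 9.33% lower. The median fold change of the markers was -0.93, beside 0.03 over all genes. In layer 3 none of the 12 passed with age, against 20.8% of all genes. Their median there was -0.08, beside 0.17 over all genes and 0.22 for Rgs10. The part of microglial RNA in the Rgs10 values was not tested. The age difference in layer 2 did not pass the threshold without P3 layer 2 replicate 2 (-0.79), P7 layer 2 replicate 1 (-0.86), P7 layer 2 replicate 3 (-1.05) or the 3 libraries that stood apart (-0.79).

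**Figure D3:**
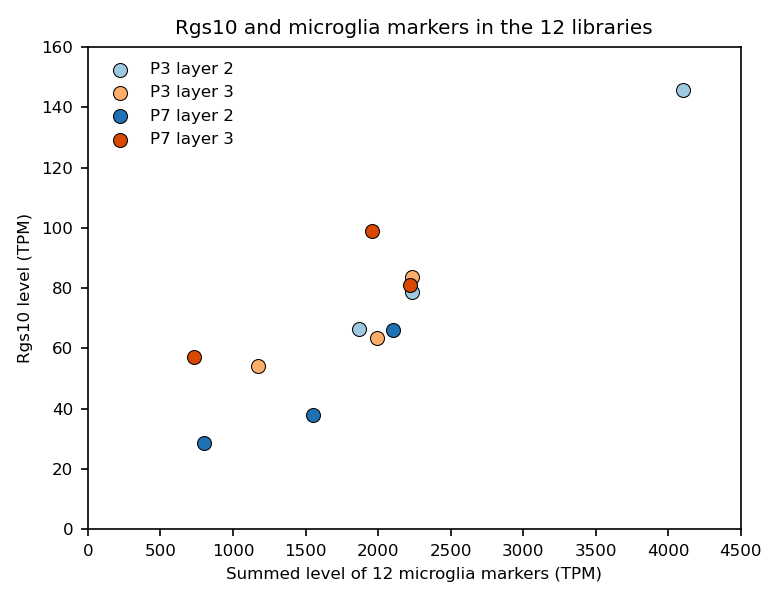
Rgs10 TPM against the summed TPM of 12 microglial markers in each of the 12 libraries, coloured by group. P3 layer 2 replicate 2 is highest on both axes, at 146 TPM of Rgs10 and 4104 TPM of markers.

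Rgs14, a scaffold with Ras-binding and GoLoco domains known for limiting plasticity in hippocampal CA2 neurons, was low but higher at P7. In layer 2 it was at 1.25, 3.44 and 1.99 TPM at P3 and at 4.30, 7.23 and 5.34 TPM at P7. In layer 3 it was at 1.36, 0.683 and 1.23 TPM at P3 and at 4.76, 3.11 and 7.37 TPM at P7. No P3 library reached the lowest P7 library of its layer, and the fold changes were 1.07 ± 0.33 in layer 2 and 1.49 ± 0.33 in layer 3. Rgs12, the largest of the R12 scaffolds, showed no such difference. It was at 12.3, 17.1 and 9.75 TPM in P3 layer 2 and 9.61, 5.52 and 12.3 TPM in P7 layer 2. In layer 3 it was at 10.9, 18.7 and 14.9 TPM at P3 and 12.3, 13.2 and 13.5 TPM at P7. Its age differences were -0.50 in layer 2 and -0.15 in layer 3, and its layer differences -0.18 at P3 and -0.52 at P7.

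Rgs17, the RZ member, acts on Gi, Go and Gz downstream of opioid and dopamine receptors. In layer 2 it was at 6.10, 5.35 and 10.6 TPM at P3 and at 17.2, 12.2 and 16.6 TPM at P7. Layer 3 held Rgs17 at 7.64, 5.45 and 12.1 TPM at P3 and at 16.0, 19.3 and 20.7 TPM at P7. The ages did not overlap in either layer, with fold changes of 1.01 ± 0.29 and 1.12 ± 0.29, while the layers overlapped at both ages (-0.16 and -0.27).

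Rgs4, Rgs7, Rgs14 and Rgs17 passed the threshold with higher levels at P7 in each layer, and Rgs10 passed with a lower level in layer 2. Over all tested genes 24.3% passed in layer 2, 15.0% as higher and 9.33% as lower, and 20.8% in layer 3, 14.4% as higher and 6.42% as lower. The ranges of the same genes were apart in the same directions. Over all genes they were apart for 46.6% in layer 2, 26.3% higher and 20.3% lower, and for 34.5% in layer 3, 23.2% higher and 11.3% lower. As with the layers, nothing is read from these counts. The median fold change of the 10 genes was 0.16 in layer 2 and 0.36 in layer 3, beside 0.03 and 0.17 over all genes. Under median-ratio scaling and quantile normalization the median of all genes in layer 3 was 0.01 and -0.02, and the share of called genes that were higher was 50% and 49.7% in place of 69.2%. Over 15 other settings the age difference of Rgs4 ran from 3.21 to 3.58 in layer 2 and from 2.83 to 3.27 in layer 3. That of Rgs7 ran from 1.23 to 1.42 and from 0.74 to 1.08, and that of Rgs14 in layer 3 from 0.71 to 2.08.

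The calls nearest the threshold moved with the libraries. Rgs14 in layer 2 did not pass with no filter on low values (1.07) or without P3 layer 2 replicate 1 (0.84) or 3 (1.04) or P7 layer 2 replicate 2 (0.90) or 3 (1.09). Rgs17 in layer 2 did not pass without P3 layer 2 replicate 1 (0.91) or 2 (0.83) or P7 layer 2 replicate 1 (0.92) or 3 (0.95), or without the 3 libraries that stood apart (0.83). In layer 3 Rgs17 did not pass with quantile normalization (0.82) or without P7 layer 3 replicate 3 (1.04) or the 3 libraries (1.19).

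The order of levels among the 10 genes changed between the ages. In P3 layer 2 Rgs10, Rgs7 and Rgs2 led, with overlapping ranges and means of 96.9 ± 42.7, 61.8 ± 8.58 and 51.8 ± 8.23 TPM, and Rgs4 came next below them. In P3 layer 3 the same 3 genes led as Rgs2, Rgs7 and Rgs10, at 98.0 ± 14.8, 85.7 ± 15.4 and 67.1 ± 15.2 TPM. In P7 layer 2 Rgs4 stood above Rgs7 (157 ± 17.1 TPM), and Rgs7 above Rgs2 and Rgs10, each step without overlap except the last. In P7 layer 3 Rgs7 (164 ± 2.27 TPM) and Rgs4 overlapped at the top, above Rgs2 (85.6 ± 7.51 TPM) and Rgs10 (79.0 ± 21.0 TPM). Rgs17 came next in both P7 groups. Rgs8 and Rgs13 were the lowest in layer 2 at both ages, while in layer 3 the range of Rgs13 overlapped that of Rgs12.

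Several of these genes are neighbours on chromosome 1. In the RefSeq gene order of GRCm38, Rgs2, Rgs13, Rgs1, Rgs21 and Rgs18 follow each other with no other coding gene between them. Of this run Rgs2 and Rgs13 were the genes above with higher levels in layer 3 than in layer 2. Rgs1, an immune cell regulator, was at 0.484 to 4.19 TPM and Rgs18, known from platelets, at 0.224 to 6.65 TPM, and neither passed a test in any comparison. Rgs21 was listed at 0 in all 12 libraries. Rgs5 and Rgs4 are adjacent, as are Rgs8 and Rgs16. Rgs5, a regulator best known from pericytes, rose with age in layer 3 from 0.504, 5.42 and 0.562 TPM to 9.22, 7.02 and 6.83 TPM (1.80 ± 0.44, limma adjusted p = 0.0107). In layer 2 it was at 1.88 to 2.19 TPM at P3 and 4.43 to 5.65 TPM at P7 and did not pass. The layer 3 call did not hold without P3 layer 3 replicate 1 (adjusted p = 0.0536) or 3 (adjusted p = 0.0523), with the compared groups fitted alone (0.0575), or without the 3 libraries that stood apart (fold change 1.32, adjusted p = 0.138). Vascular markers summed to 148, 33.8 and 20.2 TPM in P3 layer 3 and 35.3, 18.4 and 21.4 TPM in P7 layer 3.

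**Figure D4:**
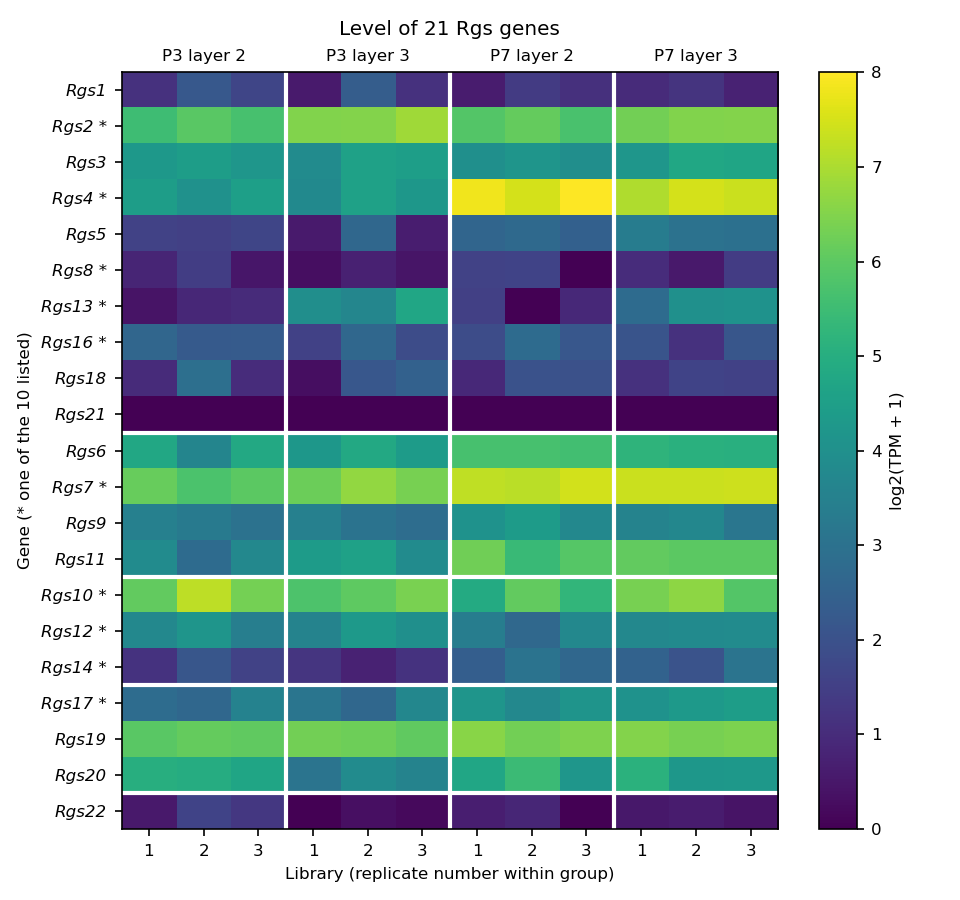
Heat map of log2(TPM + 1) for the 21 Rgs genes considered (rows, divided into R4, R7, R12, RZ and Rgs22) in the 12 libraries (columns), with the 10 listed genes starred. Rgs4 and Rgs7 are at 130 TPM or more in every P7 library, and Rgs21 is at 0 throughout.

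The other 11 Rgs genes were taken as a list, of which 9 had at least 1 TPM in at least 3 libraries and were tested with limma over all genes. Between P3 and P7, 4 of these 9 rose in layer 2 and 3 rose in layer 3, and none fell. Over all tested genes 15.0% rose and 9.33% fell in layer 2, and 14.4% rose and 6.42% fell in layer 3. In layer 2 the genes were Rgs6, Rgs9, Rgs11 and Rgs19. Rgs11, an R7 protein like Rgs7, rose from 13.7, 6.02 and 12.2 TPM to 75.4, 42.1 and 58.2 TPM in layer 2 (2.39 ± 0.28, limma adjusted p = 5.54e-05). In layer 3 Rgs11 rose from 20.2, 23.0 and 13.6 TPM to 67.3, 62.6 and 62.3 TPM (1.74 ± 0.28, limma adjusted p = 0.000866). The P7 libraries were higher without overlap in both layers.

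Rgs6, also of the R7 class, rose in layer 2 from 27.0, 11.4 and 27.5 TPM to 50.5, 49.8 and 47.1 TPM (1.22 ± 0.27, limma adjusted p = 0.00495). Rgs9, known for striatal dopamine and photoreceptor signalling, rose in layer 2 by 0.81 ± 0.25 (limma adjusted p = 0.0318), and Rgs19, an RZ protein, by 0.40 ± 0.12 (limma adjusted p = 0.0232). The calls of Rgs9 and Rgs19 were lost in most fits that left out a layer 2 library, and also with quantile normalization (adjusted p = 0.0532 and 0.0884) and median-ratio scaling (0.0505 and 0.0942). Rgs9 also did not pass with no filter on low values (adjusted p = 0.0533) or without the 3 libraries that stood apart (0.0577).

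Rgs20, an RZ relative of Rgs17, was the only one of the 9 that differed between the layers at P3 in this fit. It was at 31.3, 30.1 and 25.4 TPM in layer 2 and 7.53, 13.6 and 11.1 TPM in layer 3, higher in layer 2 by 1.38 ± 0.31 (limma adjusted p = 0.0152). It did not pass without P3 layer 2 replicate 2 (adjusted p = 0.0612) or P3 layer 3 replicate 1 (adjusted p = 0.0578), or without the 3 libraries that stood apart (1.14, adjusted p = 0.0993). In layer 3 Rgs20 then rose to 33.6, 18.1 and 18.4 TPM at P7 (1.03 ± 0.31, limma adjusted p = 0.0316), a call lost without P3 layer 3 replicate 1 (adjusted p = 0.129) or 3 (0.0693) or P7 layer 3 replicate 1 (0.136). Rgs20 in layer 3 also did not pass with no filter (adjusted p = 0.0568), with quantile normalization (0.0657), with the compared groups fitted alone (0.0593), or without the 3 libraries, where the fold change was 0.54 (0.338). The comparisons by layer at P3 and by age in layer 3 share the P3 layer 3 libraries. Rgs3, an R4 protein, was at 13.4 to 26.2 TPM over all groups and did not pass in any comparison. Rgs22 was at 2.08 TPM or less and was not tested.

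RGS proteins of the R7 class are held at the membrane by partners. Of 5 partners listed, 3 were tested. Beside the 15.0% (layer 2) and 14.4% (layer 3) of all genes that rose with age, these 3 rose in both layers. These 3 were chosen for naming after their values were seen. Gnb5, the beta subunit that stabilises Rgs7, rose from 57.5, 41.2 and 57.9 TPM to 119, 94.2 and 113 TPM in layer 2 (1.05 ± 0.15, limma adjusted p = 0.000227). In layer 3 Gnb5 rose from 64.3, 77.9 and 65.4 TPM to 129, 124 and 131 TPM (0.88 ± 0.15, limma adjusted p = 0.00116). Rgs7bp, which anchors the complex at the membrane, rose by 1.62 ± 0.25 in layer 2 and 1.54 ± 0.25 in layer 3 (limma adjusted p = 0.000452 and 0.000914). Gpr158, an orphan receptor that recruits Rgs7, was at 1.48, 0.411 and 1.31 TPM in P3 layer 2 and 2.51, 6.68 and 5.15 TPM in P3 layer 3. It was lower in layer 2 by -1.45 ± 0.32 (limma adjusted p = 0.0132), and not past the threshold without P3 layer 2 replicate 2 (adjusted p = 0.0685) or with the compared groups fitted alone (0.057). With age it rose by 1.36 ± 0.32 in layer 2 (limma adjusted p = 0.00719) and by 1.04 ± 0.32 in layer 3 (0.0332), the latter lost in 11 of 15 other settings.

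The wider signalling lists held 87 genes around the RGS proteins, of which 73 were tested. These lists, which include the other Rgs genes and the partners above, were drawn up with earlier results of these data known. Nothing about the pathway is therefore read from their counts, here or list by list. Between P3 and P7 in layer 2, 29 rose and 4 fell, with a median fold change of 0.29 beside 0.03 over all genes, of which 15.0% rose and 9.33% fell. In layer 3, 25 rose and 2 fell, with a median of 0.45 beside 0.17 over all genes, of which 14.4% rose and 6.42% fell. The layer 3 count was 17 higher and 4 lower with quantile normalization, 19 and 4 with median-ratio scaling, and 16 and 1 without P3 layer 3 replicate 1 or with the compared groups fitted alone. At P3, 2 of the 73 were higher and 9 lower in layer 2, with a median of -0.09 beside 0.06, and without P3 layer 2 replicate 2 none was higher and 5 were lower. Without P3 layer 3 replicate 3 the split was 1 and 6, and with the compared groups fitted alone 2 and 4. It was 6 and 8 without P3 layer 3 replicate 2, 4 and 13 with median-ratio scaling and 3 and 13 with quantile normalization. Over all genes 4.87% were higher and 4.18% lower. At P7 none of the 73 differed between the layers by limma, and 10 had an unadjusted p under 0.05, as had 9.92% of all genes.

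**Figure D5:**
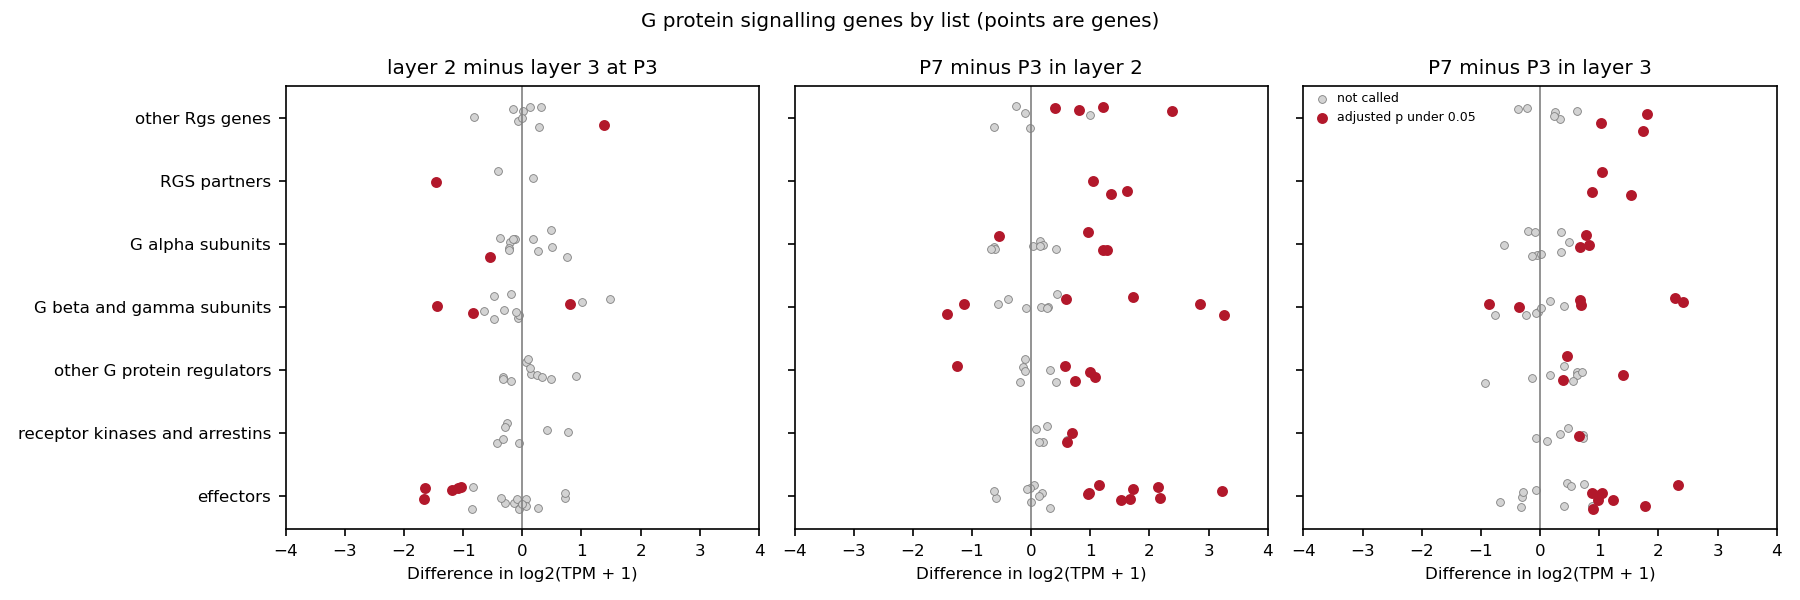
Log2 fold changes of the 73 tested G protein signalling genes by list, for layer 2 against layer 3 at P3 and for P7 against P3 in each layer. Each point is a gene, red where the adjusted p was under 0.05. Gng4 is the furthest to the right with age in both layers, at 3.26 and 2.41.

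Of 12 alpha subunits, 3 rose and 1 fell in layer 2, and 3 rose and none fell in layer 3, beside the 24.3% and 20.8% of all genes called in either direction. Those that rose in both layers, named after their values were seen, were Gnai1, Gnao1 and Gnaz, alpha subunits of the Gi family, on which many RGS proteins act. Gnao1 rose from 258, 175 and 240 TPM to 567, 512 and 545 TPM in layer 2 (1.29 ± 0.13, limma adjusted p = 1.72e-05). In layer 3 Gnao1 rose by 0.68 ± 0.13 (limma adjusted p = 0.00285). Gnai1 rose by 1.21 ± 0.19 and 0.83 ± 0.19 (limma adjusted p = 0.000425 and 0.00718) and Gnaz by 0.96 ± 0.17 and 0.78 ± 0.17 (0.00123 and 0.00618). Gnai2 fell in layer 2 by 0.55 on the log2 scale (limma adjusted p = 0.0297), a call lost in 6 of 15 other settings.

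Of 13 beta and gamma subunits, 4 rose and 2 fell in each layer, where 24.3% (layer 2) and 20.8% (layer 3) of all genes were called. Gng4, a gamma subunit of the nervous system, rose from 12.1, 15.4 and 11.7 TPM to 136, 126 and 138 TPM in layer 2 (3.26 ± 0.17, limma adjusted p = 1.26e-07). In layer 3 Gng4 rose from 19.1, 30.8 and 23.0 TPM to 130, 139 and 125 TPM (2.41 ± 0.17, limma adjusted p = 1.55e-06). Gng13, known from taste and retinal cells, rose by 2.86 ± 0.32 and 2.28 ± 0.32 (limma adjusted p = 3.98e-05 and 0.000355). Gng5, a broadly expressed gamma subunit, fell by 1.14 in layer 2 and by 0.87 in layer 3 (limma adjusted p = 0.000901 and 0.00711). In P3 layer 2 Gng5 was at 209, 360 and 231 TPM, highest in the library with the highest microglial marker sum. The part of microglial RNA in Gng5 was not tested. In P3 layer 3 Gng5 was at 163, 143 and 137 TPM, so that layer 2 was higher by 0.81 ± 0.20 (limma adjusted p = 0.0212). That call was lost without P3 layer 2 replicate 2 (limma adjusted p = 0.0853) or P3 layer 3 replicate 3 (0.0711). It was also lost with the compared groups fitted alone (0.0576) and without the 3 libraries that stood apart (0.0939). Gng12 fell by 1.43 in layer 2 (limma adjusted p = 0.0462) and Gng10 by 0.35 in layer 3 (0.0227), and both calls were lost without several of the compared libraries. Gnb4 was lower in layer 2 than in layer 3 at P3, at 26.4, 22.3 and 18.9 TPM against 63.3, 64.2 and 60.9 TPM (-1.45 ± 0.19, limma adjusted p = 0.000795), and that call held in all 15 other settings.

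Effectors, the enzymes and channels that G proteins act on, held 18 tested genes. With age 9 rose in layer 2 and 8 in layer 3, and none fell, beside 15.0% and 14.4% of all genes that rose. Kcnj9, a subunit of the GIRK potassium channels that Gi signals open, rose from 3.25, 1.31 and 4.60 TPM to 38.7, 31.8 and 34.1 TPM in layer 2 (3.23 ± 0.30, limma adjusted p = 8.89e-06). In layer 3 Kcnj9 rose from 7.79, 15.9 and 10.8 TPM to 59.7, 51.4 and 70.1 TPM (2.34 ± 0.30, limma adjusted p = 0.000197). Plcb4, a phospholipase of the Gq pathway, rose by 1.68 ± 0.29 in layer 2 and by 1.78 ± 0.29 in layer 3 (limma adjusted p = 0.00101 and 0.000963). Adcy1, a calcium-stimulated adenylyl cyclase, rose by 2.18 ± 0.26 in layer 2 and by 1.23 ± 0.26 in layer 3 (limma adjusted p = 5.59e-05 and 0.00463). At P3, beside 4.18% lower and 4.87% higher over all genes, 5 effectors were lower in layer 2 and none higher. They included Kcnj9 (-1.67 ± 0.30), Adcy8, another calcium-stimulated cyclase (-1.65 ± 0.30), and Plcb1, a Gq-activated phospholipase (-1.19 ± 0.23), with limma adjusted p = 0.00475, 0.00475 and 0.0068. The P3 calls of these 3 genes held in all 15 other settings. Adcy1 and Adcy2, named after their values were seen, were also lower (-1.09 ± 0.26 and -1.04 ± 0.26, limma adjusted p = 0.0182 and 0.0271). Neither passed with the compared groups fitted alone (limma adjusted p = 0.0898 and 0.11). Nor did they pass without P3 layer 2 replicate 2 (0.079 and 0.103), and other fits lost them too.

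Of 11 other G protein regulators, 4 rose and 1 fell in layer 2, and 3 rose and none fell in layer 3. The gene that fell was Gpsm3, a GoLoco protein of immune cells, by 1.26 on the log2 scale (limma adjusted p = 0.0432), a call lost without P3 layer 2 replicate 2 (adjusted p = 0.201) and in 6 other settings. Of 7 receptor kinases and arrestins, 2 rose in layer 2 and 1 in layer 3. For both lists the share called stands beside 24.3% of all genes in layer 2 and 20.8% in layer 3.

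The difference between the layers in their change with age was tested directly. None of the 10 listed genes passed, against 0.182% of all tested genes, 0.119% as a positive and 0.0625% as a negative difference. As the 10 were listed with the layer and age differences in view, nothing is read from that. The largest differences among the 10 were -1.34 ± 0.46 for Rgs10 and 0.54 for Rgs13. None of the 73 signalling genes passed by limma either, and 9 had an unadjusted p under 0.05, as had 11.4% of all genes. The age changes of the same genes in the 2 layers are given side by side, and no difference between them is claimed.

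For the 3 listed genes whose group means spanned most, the genes with the most similar pattern were found by Pearson's r of log2(TPM + 1) over the 12 libraries. These r values describe 12 libraries that fall into 4 groups, so they largely follow the group means. Nearest Rgs4 were Cacng3 (r = 0.994), an AMPA receptor auxiliary subunit, Npnt (0.989), a matrix protein, and Mrtfb (0.987), a coactivator of serum response factor. Cacng3 went from 4.98 ± 1.57 to 127 ± 14.4 TPM in layer 2 and from 6.30 ± 3.98 to 86.4 ± 10.2 TPM in layer 3. Nearest Rgs13 were Lhfp (0.943), Adamtsl3 (0.941) and Bace2 (0.94), a protease related to the beta-secretase. Lhfp was at 47.9 ± 8.11 TPM in layer 2 and 152 ± 14.9 TPM in layer 3 at P3, and at 45.5 ± 3.09 and 133 ± 12.4 TPM at P7. Nearest Rgs14 were Klhdc8b (0.926), Nab2 (0.924), a repressor of Egr transcription factors, and Ivd (0.92), an enzyme of leucine breakdown. Nab2 was at 10.3 ± 2.55 and 9.11 ± 1.72 TPM at P3 in layers 2 and 3, and at 19.8 ± 0.836 and 17.3 ± 2.28 TPM at P7.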

How the data were processed

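Per the labels' protocols, the SMART-Seq mRNA LP kit was used on RNA from 12 pools of sorted neurons. Per the submitters' processing notes, HISAT2, StringTie and featureCounts were used with GRCm39, and versions, strand setting and treatment of shared reads are not given in the sources used here. The authors deposited TPM for 56734 genes, and every column summed to 1000000, so read depth and the precision it gives are unknown.

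Groups came from the sample labels, 3 libraries in each. The series' design states that a replicate is a pool of pups. The table has 30388 genes above 0. Genes that reached 1 TPM in 3 or more libraries (17606) were fitted as log2(TPM + 1) with limma-trend (limma 3.58.1, R 4.3.3), 1 mean per group and 8 residual degrees of freedom. The threshold was an adjusted p of 0.05 (Benjamini-Hochberg, across all 17606 genes). Fold changes are on that log2 scale and understate changes of low genes. An exact permutation test of 3 against 3 cannot go below p = 0.1. The pipeline was tested on simulated data.

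The listed genes, the signalling lists and the markers were chosen with earlier results of these data known. Named from the signalling lists were, per comparison, up to 5 passing genes with the largest fold change in each direction and all other Rgs genes; genes outside this are said to have been named after their values were seen, and Eif2s3y, Ttr, Adcy2 (at P7) and the lymphocyte markers are named as checks. Alternatives were quantile normalization, median-ratio scaling, a pseudocount of 0.1 or 5, a 5 TPM filter or none, the compared groups alone, a replicate block and each compared library left out. A marker gene is not reported here. A fit without the 3 libraries that stood apart was chosen after seeing the data. Promoters were read from a RefSeq table on GRCm38.p6, another build than the authors', and shared 31-base stretches were counted in GENCODE M21 transcripts.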

Additional observations from a re-analysis of the deposited data

How the results depend on the processing

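No fold change of a listed or signalling gene changed sign from a called value under any setting, and lost calls are described with the named genes above, in part as counts of settings. The count of genes past the threshold at P3 (1593) was 935 with the compared groups alone, 657 to 1974 with 1 library left out and 591 without the 3 libraries that stood apart; that of signalling genes (11) was 17 with median-ratio scaling, 6 with the compared groups alone and 5 to 14 with 1 library left out. At P7 the count (88) was 47 with a pseudocount of 0.1, 147 with 5 and 14 to 44 with 1 library left out, and that of signalling genes (0) was 1, Adcy2, with the compared groups alone and without the 3 libraries. With age the count was 2793 to 3801 in layer 2 (4280) with 1 library left out. In layer 3 (3670) it was 2117 with the compared groups alone, 2275 to 5225 with 1 library left out and 2045 without the 3 libraries, and that of signalling genes (27) was 17 with the compared groups alone and 17 to 34 with 1 library left out. The count for the difference of age changes (32) was 14 with a pseudocount of 0.1, 16 with no filter, 8 to 102 with 1 library left out and 12 without the 3 libraries. The counts of 1974 at P3, 5225 with age in layer 3 and 102 for the difference came without P3 layer 3 replicate 2. The cause of these moves was not tested.

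Same-numbered libraries were not shown to pair: of 18 same-number pairs 5 had a correlation of deviations over 0.1, with a range of -0.189 to 0.214. Pairs with different numbers ran from -0.267 to 0.284. Same-number values were all positive for P7 layer 2 with P3 layer 2 (0.17, 0.214 and 0.039) and with P3 layer 3 (0.171, 0.157 and 0.051). They were all negative for P3 layer 2 with P3 layer 3 (-0.034, -0.105 and -0.013), and the other group pairs held both signs. A shared replicate effect is thus not settled. With the replicate number as a block the counts were 1524, 68, 4084, 3336 and 31 genes and 11, 0, 34, 25 and 0 signalling genes, in the order P3 layers, P7 layers, age in layer 2, age in layer 3 and their difference. TPM keep no counts, so no interval for low genes such as Rgs8 could be given.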
